A study of Mus musculus with 16 samples.

Results

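The 10 genes described here are the core of transforming growth factor beta (TGF-beta) signaling in the heart, out of 55487 gene identifiers counted. They are the 3 ligands Tgfb1, Tgfb2 and Tgfb3, the 3 receptors Tgfbr1, Tgfbr2 and Tgfbr3, Inhba, which encodes the activin A subunit, the intracellular inhibitors Smad7 and Skil, and Cilp, a matrix protein that antagonizes TGF-beta. The first 9 were taken for their place in the pathway, with earlier results of these data known. Counts of them called beside the shares of all genes are therefore not those of a set chosen apart from these libraries. Cilp was taken because it was much higher after pressure overload in these libraries, so its difference between operated and sham hearts is given as a description, with no test. RNA was sequenced from the apex of the heart of 16 male mice (n = 4 per group), collected 4 weeks after surgery. Control mice (Ctrl, labelled WT) and Cardinal-knockout mice (KO), in which CRISPR/Cas9 was used to delete the heart-enriched long noncoding RNA Cardinal (Gm12295), underwent a sham operation or transverse aortic constriction (TAC), a ligature on the aortic arch that raises the load on the left ventricle. The groups are called Ctrl sham, Ctrl TAC, KO sham and KO TAC. The labels name no promoter or cell type that would limit the deletion. Age and strain were not given in the sources used here.

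TGF-beta ligands are secreted in a latent form bound to the matrix. Once released, a ligand binds TGFBR2, which recruits and phosphorylates TGFBR1, and TGFBR1 then activates SMAD2 and SMAD3, which move to the nucleus and switch on matrix and contractile genes. TGFBR3 (betaglycan) presents ligand, TGF-beta 2 above all, to the signaling receptors, SMAD7 blocks the activated receptor, and SKIL (SnoN) represses SMAD-driven transcription. The pathway is best known in the heart for turning fibroblasts into matrix-producing myofibroblasts.

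Libraries held 53169437 to 79404714 counts and 24458 to 26388 detected genes, and mitochondrial genes took 21.9% to 28.8% of the counts. Levels are given as CPM, counts relative to a library total scaled by edgeR's trimmed mean of M values (TMM). Cardinal was at 3.54 ± 0.280 CPM (SD, n = 4) in Ctrl sham and at 0.465 ± 0.119 in KO sham. Cardinal was at 2.69 to 8.02 CPM in Ctrl TAC and at 0.276 to 0.371 in 3 KO TAC libraries, but at 4.55 CPM (377 counts) in the library labelled KO TAC 4, which goes against that label. Ctrl TAC 2 stood apart on the second principal component, at -62.5 against -3.40 to 13.8 in the other 15 libraries. The mice also carry numbers in the labels: those of Ctrl TAC 2, 3 and 4 and of the library labelled KO TAC 4 start with 25 and those of the other 12 mice start with 3, and what this numbering stands for is not stated. Calls of members and pathway list genes that rest on these libraries are therefore also given without them. The ligand shares, level ratios, profile distances, marker sums and marker calls are given with all 16 libraries only. So are the counts of ranges without overlap, of unadjusted p and of DESeq2 calls.

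Most of the members rose after pressure overload in control hearts. A gene was called changed when the Benjamini-Hochberg adjusted p of edgeR's quasi-likelihood test was under 0.05. Of the 9 members other than Cilp, 6 rose, Tgfbr3 fell, and Tgfbr2 and Smad7 were not called. Over all 18275 genes tested, 20.0% were called in this comparison, 10.4% as higher and 9.60% as lower. In KO hearts 7 of the 9 rose after TAC, Tgfbr3 fell and Smad7 was not called, beside 34.3% of all genes called (17.8% higher and 16.5% lower). The median log2 fold change of the 9 members was 0.30 in Ctrl and 0.52 in KO hearts, while that of all genes tested was 0.00 in both. The CPM ranges of TAC and sham libraries did not overlap for 6 of the 9 in Ctrl (5 higher and 1 lower), beside 20.5% of all genes (10.5% and 9.97%), and for 8 in KO hearts (7 higher and 1 lower), beside 34.6% of all genes (18.0% and 16.6%). Leaving out Ctrl TAC 2, or the library labelled KO TAC 4, gave the same 7 genes in Ctrl and the same 8 in KO hearts. The sham groups served as control in each comparison, and the tissue was bulk heart, in which more cells of a type cannot be told apart from more RNA per cell.

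**Figure D1:**
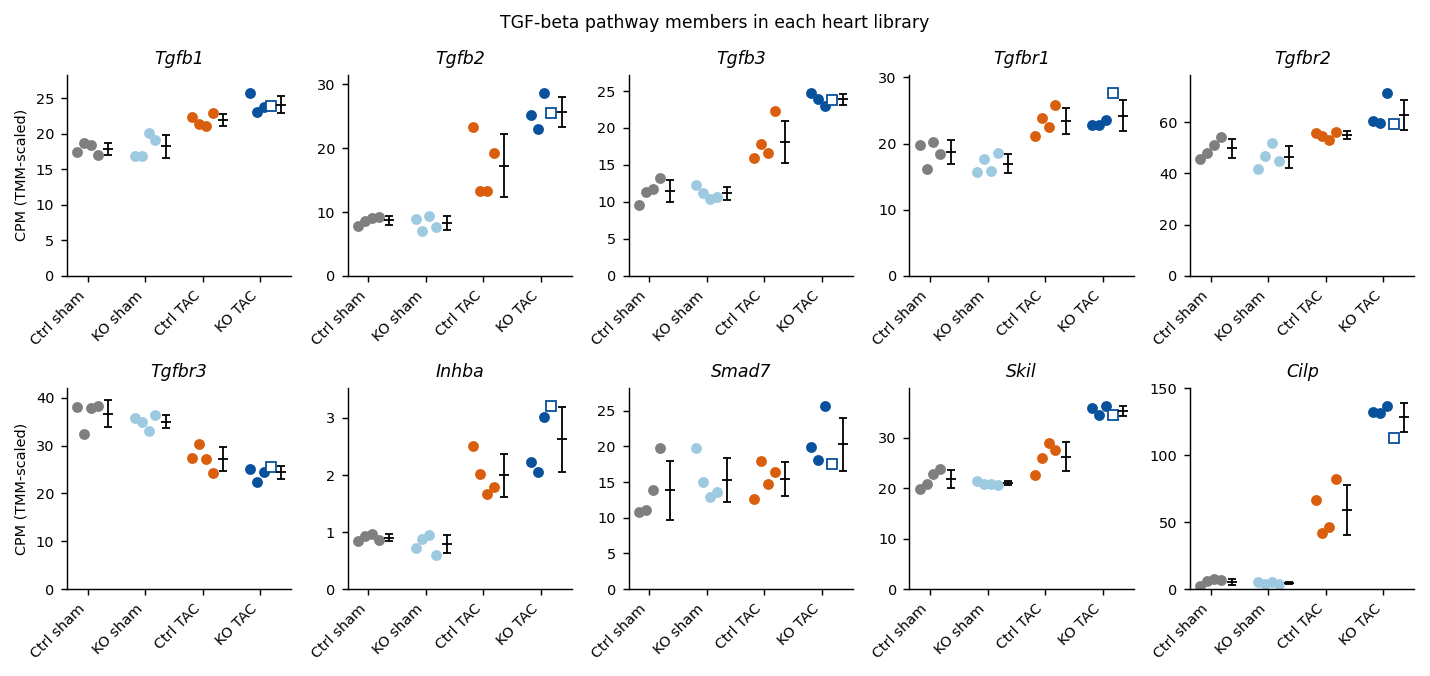
Level of each of the 10 genes in every library, as TMM-scaled CPM on a linear axis that starts at 0, for Ctrl sham (grey), KO sham (light blue), Ctrl TAC (orange) and KO TAC (dark blue). Points are mice, the open square is the library labelled KO TAC 4, and black marks are the mean ± SD of 4 libraries. Tgfb2, Tgfb3, Inhba and Cilp separate sham from TAC hearts in both genotypes, and Tgfbr3 is lower after TAC.

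The 3 ligands responded to TAC by different amounts. Tgfb1 (ENSMUSG00000002603, chr7:25687002-25705077, plus strand, GRCm38), the ligand most often studied in cardiac fibrosis, was at 17.4, 18.7, 18.4 and 17.0 CPM in the Ctrl sham libraries. It was at 22.3, 21.4, 21.1 and 23.0 CPM in Ctrl TAC, so that every TAC heart lay above every sham heart. The rise was 1.23-fold in Ctrl (log2 fold change 0.30 ± 0.063 SE, adjusted p = 0.00263 by edgeR). In KO hearts Tgfb1 went from 16.9, 16.9, 20.1 and 19.1 CPM in sham to 25.8, 23.0, 23.8 and 23.9 in TAC, a 1.32-fold rise (adjusted p = 7.57e-05). Of the 3 ligands it had the smallest response in both genotypes.

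Tgfb2 (ENSMUSG00000039239, chr1:186622792-186705989, minus strand), which depends most on betaglycan for receptor binding, had the largest response of the 3. Its levels were 7.78, 8.64, 9.04 and 9.27 CPM in Ctrl sham and 23.3, 13.4, 13.2 and 19.3 in Ctrl TAC. All 4 Ctrl TAC hearts were above the sham hearts, but they were spread widely, with Ctrl TAC 2 and 3 lowest. The rise was 1.99-fold (log2 fold change 0.99 ± 0.15, adjusted p = 0.000250). In KO hearts the sham values of 8.98, 7.10, 9.42 and 7.71 CPM stood against 25.3, 23.0, 28.7 and 25.6 in TAC, a 3.09-fold rise (log2 fold change 1.63, adjusted p = 8.14e-07).

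Tgfb3 (ENSMUSG00000021253, chr12:86056745-86079041, minus strand), the third ligand, was at 9.55, 11.4, 11.8 and 13.2 CPM in Ctrl sham and at 15.9, 17.8, 16.6 and 22.3 in Ctrl TAC. It rose 1.59-fold in Ctrl (log2 fold change 0.67 ± 0.10, adjusted p = 0.000133), with no overlap between the groups. In KO hearts it went from 12.3, 11.3, 10.4 and 10.7 CPM to 24.8, 23.9, 22.9 and 23.8, a 2.14-fold rise (adjusted p = 2.21e-07). The 4 KO TAC hearts lay within 2 CPM of each other, the library labelled KO TAC 4 included.

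Because the ligands responded unequally, the make-up of the ligand pool differed between sham and TAC hearts. Per kilobase of annotated exon (RPKM), the sum of the 3 ligands was 8.44 ± 0.560 in Ctrl sham, 8.35 ± 0.339 in KO sham, 12.7 ± 1.40 in Ctrl TAC and 16.3 ± 0.500 in KO TAC. Tgfb1 made up 42.1% ± 3.08 of that sum in Ctrl sham and 34.4% ± 2.36 in Ctrl TAC. In KO hearts the share of Tgfb1 was 43.4% ± 3.14 in sham and 29.4% ± 0.739 in TAC. The share of Tgfb2 was 17.8% ± 0.295 in Ctrl sham, 17.1% ± 1.57 in KO sham, 23.3% ± 5.07 in Ctrl TAC and 27.2% ± 2.07 in KO TAC. Tgfb3 held 39.5% to 43.4% of the sum in all 4 groups, so that by group means Tgfb3, and not Tgfb1, was the most abundant ligand per kilobase in both TAC groups. That order and the shares depend on the annotated exon lengths used, 5042 bases for Tgfb1 and 3383 for Tgfb3. Without length scaling the mean CPM of Tgfb1 was above that of Tgfb3, at 21.9 against 18.2 in Ctrl TAC and 24.1 against 23.9 in KO TAC. In Ctrl sham the means of Tgfb1 (3.54 ± 0.159 RPKM) and Tgfb3 (3.39 ± 0.444 RPKM) differed by less than either SD, and in KO sham they were 3.62 ± 0.315 and 3.30 ± 0.251 RPKM. These shares are descriptions and were not tested.

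**Figure D2:**
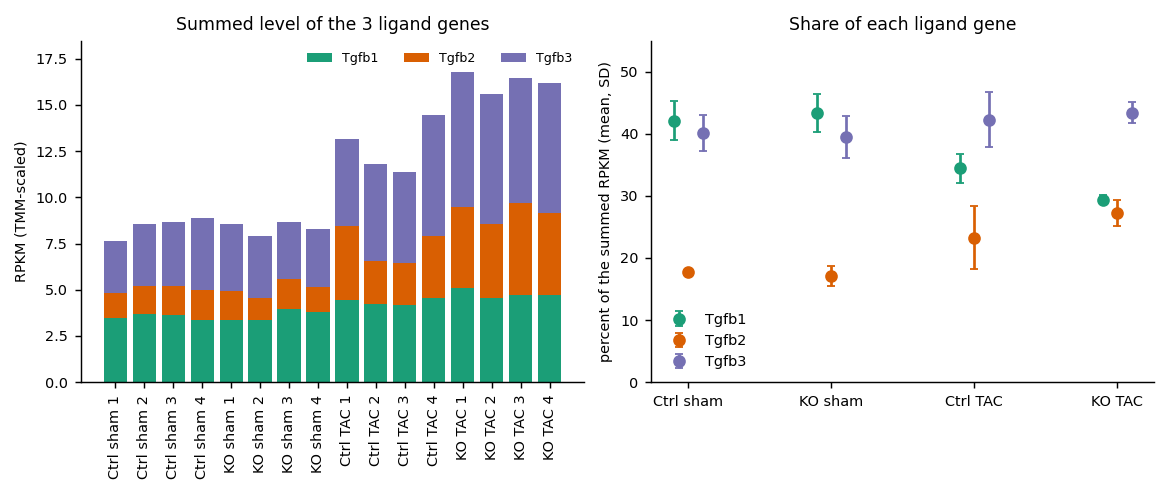
RPKM of Tgfb1, Tgfb2 and Tgfb3 stacked for each of the 16 libraries (left), and the percent of the 3-ligand sum held by each ligand as the mean ± SD of 4 libraries per group (right). The stacks are tallest in KO TAC, and the mean Tgfb1 share is highest in the sham groups (42.1% and 43.4%) and lowest in KO TAC (29.4%), while the Tgfb2 share is highest in KO TAC (27.2%).

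The region upstream of the transcription start is shown for Tgfb1 and Tgfb2, the ligands with the smallest and the largest response to TAC, and for Cilp. The sequences are RefSeq's for build GRCm38.p6, each the 250 bases before the annotated start in the direction of the gene, at chr7:25686752-25687001 (plus strand) for Tgfb1, chr1:186705990-186706239 (minus strand) for Tgfb2 and chr9:65264930-65265179 (plus strand) for Cilp. Capitals mark matches to CAGAC, the core bound by SMAD proteins, TGANTCA, a site of AP-1 factors, or TATAA, the TATA box, searched on both strands with no overlap between matches.
Tgfb1: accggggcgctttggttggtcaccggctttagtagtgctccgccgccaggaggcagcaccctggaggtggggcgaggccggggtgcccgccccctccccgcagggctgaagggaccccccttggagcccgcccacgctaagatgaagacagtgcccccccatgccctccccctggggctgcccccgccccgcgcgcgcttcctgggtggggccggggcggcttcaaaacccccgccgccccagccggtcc
Tgfb2: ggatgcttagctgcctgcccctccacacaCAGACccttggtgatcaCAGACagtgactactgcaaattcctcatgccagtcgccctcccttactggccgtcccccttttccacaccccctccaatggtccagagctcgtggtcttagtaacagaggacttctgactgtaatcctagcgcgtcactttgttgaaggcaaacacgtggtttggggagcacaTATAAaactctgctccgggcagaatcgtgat
Cilp: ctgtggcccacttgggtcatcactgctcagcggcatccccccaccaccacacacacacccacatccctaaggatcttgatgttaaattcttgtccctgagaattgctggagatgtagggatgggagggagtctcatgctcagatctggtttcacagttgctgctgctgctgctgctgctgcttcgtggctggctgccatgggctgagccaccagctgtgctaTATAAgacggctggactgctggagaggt
The Tgfb1 window holds none of the 3 motifs and has a GC content of 75.2%. The Tgfb2 window has a GC content of 53.6% and holds CAGAC starting 221 and 204 bases before the start and TATAA starting 31 bases before it. The Cilp window has a GC content of 56.0% and holds TATAA starting 28 bases before the start. Of 32851 mouse windows of this length, 42.2% hold CAGAC, 6.75% hold TGANTCA and 22.8% hold TATAA. A promoter entry was found for 6 of the 10 members, not for Tgfb3, Tgfbr3, Skil and Smad7.

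The receptors moved in different directions. Tgfbr1 (ENSMUSG00000007613, chr4:47353222-47414931), the signaling type I receptor, was at 19.8, 16.2, 20.2 and 18.5 CPM in Ctrl sham and at 21.2, 23.9, 22.5 and 25.8 in Ctrl TAC. It rose 1.25-fold in Ctrl (log2 fold change 0.32 ± 0.085, adjusted p = 0.0118) and 1.43-fold in KO hearts, from 15.6, 17.7, 15.9 and 18.6 to 22.8, 22.8, 23.6 and 27.7 CPM (adjusted p = 0.000135). In both genotypes the TAC libraries all lay above the sham libraries. The rise in Ctrl was not called without Ctrl TAC 4 (adjusted p = 0.0508) or with a term for the animal numbers starting with 25 (log2 fold change 0.15, adjusted p = 0.347), against adjusted p from 0.00453 to 0.347 over 24 alternatives.

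Tgfbr2 (ENSMUSG00000032440, chr9:116084293-116175360), the ligand-binding type II receptor, was at 45.9, 48.0, 51.1 and 54.1 CPM in Ctrl sham and at 55.8, 54.5, 53.2 and 56.4 in Ctrl TAC. The groups overlapped and the difference was not called (log2 fold change 0.14, 95% interval -0.01 to 0.29, adjusted p = 0.178). In KO hearts Tgfbr2 rose 1.36-fold, from 41.7, 46.9, 52.0 and 44.7 CPM in sham to 60.7, 59.6, 71.5 and 59.5 in TAC (adjusted p = 0.000116). KO TAC 3 was the highest of the 16 libraries. Per kilobase Tgfbr2 was the most abundant signaling receptor throughout, at 1.89 to 2.20 times the RPKM of Tgfbr1 as group means, with SDs of 0.155 to 0.297.

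Tgfbr3 (ENSMUSG00000029287, chr5:107106570-107289629), the co-receptor betaglycan, was the only member to fall. It was at 38.1, 32.3, 37.9 and 38.2 CPM in Ctrl sham and at 27.4, 30.4, 27.2 and 24.2 in Ctrl TAC, so that the highest TAC heart lay below the lowest sham heart. It fell by 0.43 ± 0.070 on the log2 scale in Ctrl (adjusted p = 0.000261). In KO hearts it fell by 0.52 (adjusted p = 1.43e-05), from 35.8, 34.9, 33.1 and 36.4 CPM to 25.1, 22.4, 24.6 and 25.5. In sham hearts Tgfbr3 was close to Tgfbr2 per kilobase, at 5.60 ± 0.438 against 6.08 ± 0.441 RPKM in Ctrl. In Ctrl TAC hearts it was at 4.17 ± 0.385 against 6.71 ± 0.176 RPKM.

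Inhba (ENSMUSG00000041324, chr13:16011851-16031621), whose product forms activin A and signals through SMAD2 and SMAD3 by its own receptors, was the least abundant member, with 34 to 266 counts per library. It was at 0.835 to 0.963 CPM in Ctrl sham and at 2.52, 2.02, 1.67 and 1.78 in Ctrl TAC, a 2.22-fold rise without overlap (log2 fold change 1.15 ± 0.19, adjusted p = 0.000276). In KO hearts it went from 0.597 to 0.947 CPM in sham to 2.23, 2.05, 3.02 and 3.21 in TAC. That rise was 3.34-fold (adjusted p = 1.61e-06), the largest of the 9 tested members in KO hearts as it was in Ctrl hearts.

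The 2 intracellular inhibitors, both themselves induced by TGF-beta in many cells, differed. Smad7 (ENSMUSG00000025880) varied widely within groups, at 10.7, 11.1, 13.8 and 19.7 CPM in Ctrl sham and 12.6, 18.0, 14.8 and 16.4 in Ctrl TAC, and these ranges overlapped. In KO hearts it was at 19.7, 14.9, 12.9 and 13.6 CPM in sham and at 19.8, 18.0, 25.6 and 17.6 in TAC. Smad7 was not called in Ctrl (log2 fold change 0.16, 95% interval -0.26 to 0.58, adjusted p = 0.630) or KO hearts (0.41, -0.01 to 0.82, adjusted p = 0.127). Without KO sham 1, the highest of the KO sham libraries, it was called in KO hearts (log2 fold change 0.55, adjusted p = 0.0471), with adjusted p from 0.0143 to 0.337 over 24 alternatives.

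Skil (ENSMUSG00000027660, chr3:31095058-31122577) was at 19.9, 20.8, 22.9 and 23.9 CPM in Ctrl sham and at 22.6, 25.9, 29.0 and 27.7 in Ctrl TAC. It rose 1.20-fold in Ctrl (log2 fold change 0.27 ± 0.070, adjusted p = 0.0106), although Ctrl TAC 1 lay within the sham range. With a term for the animal numbers starting with 25 this rise was not called (0.17, adjusted p = 0.237), nor in a fit to the 8 Ctrl libraries alone (adjusted p = 0.0547). In KO hearts Skil rose 1.68-fold, from 21.5, 20.9, 20.9 and 20.6 CPM to 35.9, 34.4, 36.3 and 34.6 (log2 fold change 0.75, adjusted p = 2.54e-07). The KO TAC hearts all lay above every other heart in the study.

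Cilp (ENSMUSG00000042254, chr9:65265180-65280605) encodes cartilage intermediate layer protein, a secreted matrix protein that binds TGF-beta 1 and limits its signaling. It was at 2.38, 5.76, 7.30 and 6.75 CPM in Ctrl sham, 5.56, 3.94, 5.37 and 4.18 in KO sham, 66.4, 42.3, 46.2 and 82.2 in Ctrl TAC and 132, 131, 137 and 113 in KO TAC. The fitted level was 10.8-fold that of sham in Ctrl hearts (log2 fold change 3.43 ± 0.30) and 26.9-fold in KO hearts (4.75 ± 0.32), the contrast for which Cilp was chosen. Per kilobase Cilp was at 0.152 ± 0.0548 times the summed ligands in Ctrl sham, 0.134 ± 0.0184 times in KO sham, 1.08 ± 0.224 times in Ctrl TAC and 1.86 ± 0.156 times in KO TAC. No other member approached this range: the nearest to Cilp in profile over the 16 libraries was Inhba, at a root mean square difference of 1.45 in centred log2 CPM. Among 10589 genes compared in this way, the 5 nearest to Cilp were Ltbp2 (0.236), Nppa (0.436), Thbs4 (0.479), Postn (0.519) and Acta1 (0.530). Ltbp2 encodes a matrix protein of the latent TGF-beta binding protein family, and Nppa encodes the cardiomyocyte stress hormone atrial natriuretic peptide. Thbs4 and Postn encode matrix proteins of stressed heart, and Acta1 encodes skeletal alpha-actin. These distances are descriptions over libraries that share 4 groups.

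**Figure D3:**
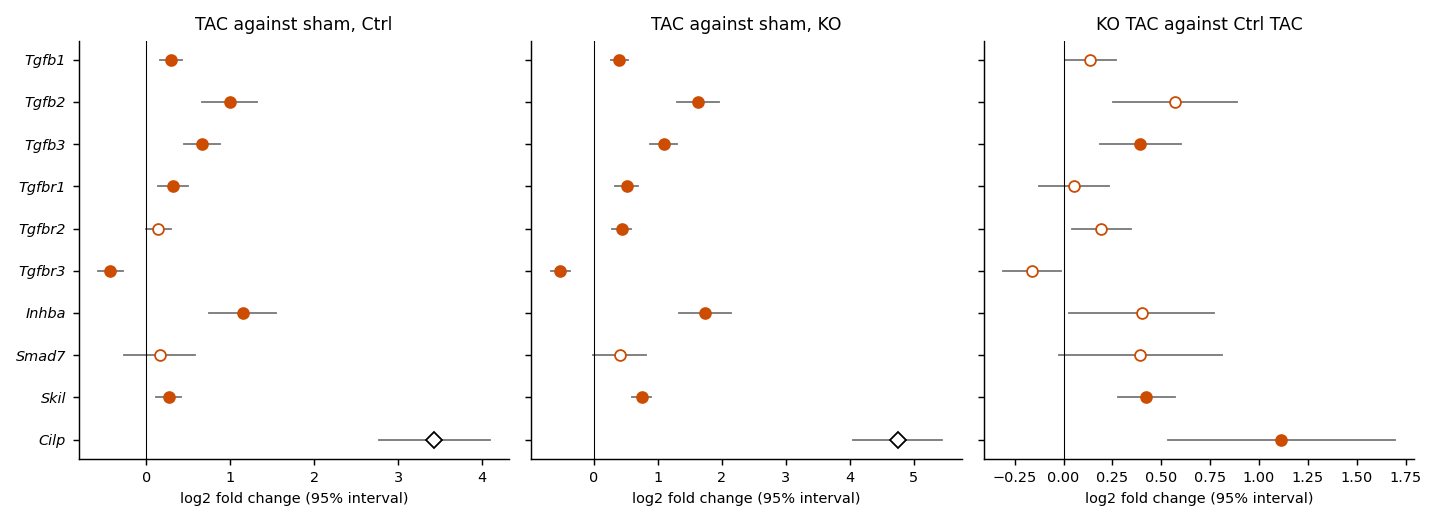
Log2 fold change of each of the 10 genes, with 95% intervals, for TAC against sham in Ctrl, TAC against sham in KO and KO TAC against Ctrl TAC; each panel has its own scale. Filled points had an adjusted p under 0.05 by edgeR, open points did not, and black open diamonds mark Cilp where it was chosen on that contrast and not tested. Tgfbr3 lies left of 0 and most other members right of 0 after TAC, and Skil, Tgfb3 and Cilp are filled for KO against Ctrl in TAC hearts.

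In sham hearts, where the question is whether loss of Cardinal alone changed the pathway, no member was called between KO and Ctrl by edgeR. The log2 fold changes ran from -0.20 for Cilp to 0.15 for Smad7 and every adjusted p was 1.00. None of the 10 was under 0.05 before adjustment, and DESeq2 called none either. In this comparison 0% of all genes were called by edgeR, and 479 of 18275 had an unadjusted p under 0.05. The 95% intervals were narrow for the more abundant members, at -0.10 to 0.16 for Tgfb1 and -0.21 to 0.09 for Skil, and wide for Cilp, at -0.88 to 0.47. No member's CPM ranges were without overlap between the sham groups, beside 1.78% of all genes (0.941% higher and 0.837% lower).

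In TAC hearts 3 of the 10 members were higher in KO than in Ctrl, namely Skil, Tgfb3 and Cilp, and none was lower. Over all genes 2.68% were called, 1.36% as higher and 1.32% as lower. Skil had the smallest adjusted p of the 3 and was 1.34-fold higher (log2 fold change 0.42 ± 0.069, adjusted p = 0.00883 by edgeR), and the lowest KO TAC library at 34.4 CPM stood above the highest Ctrl TAC library at 29.0. It was called in all 24 alternatives, at log2 fold changes of 0.36 to 0.49 and adjusted p from 1.12e-05 to 0.0446. Tgfb3 was 1.31-fold higher (0.39 ± 0.099, adjusted p = 0.0421), also without overlap, at 22.9 against 22.3 CPM for the nearest libraries. Cilp was 2.16-fold higher (1.11 ± 0.27, adjusted p = 0.0466), at 113 CPM in the lowest KO TAC library, the one labelled KO TAC 4, and 82.2 in the highest Ctrl TAC library. Cilp was chosen for its level after TAC in these same libraries, so its call here is not independent of that choice.

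The calls of Tgfb3 and Cilp lay near the threshold. Tgfb3 was called in 10 of 24 alternatives (adjusted p 0.00644 to 0.165) and Cilp in 6 (0.00712 to 0.209). With 1 library left out at a time, Tgfb3 was called in 5 and Cilp in 2 of 16 fits. Tgfb3 was called without Ctrl sham 1, 2 or 4, KO sham 3 or Ctrl TAC 4, and Cilp without Ctrl sham 1 or Ctrl TAC 4. Each was lost without any 1 of the other libraries, all 4 KO TAC libraries included. Without the library labelled KO TAC 4, Skil was called (0.43, adjusted p = 0.0114), while Tgfb3 (0.39, adjusted p = 0.0699) and Cilp (1.17, adjusted p = 0.0608) kept their size but were not called. Without Ctrl TAC 2, Skil was called (0.42, adjusted p = 0.0322), and Tgfb3 (0.38, adjusted p = 0.123) and Cilp (0.98, adjusted p = 0.154) were not.

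Tgfb2 was 1.49-fold higher in KO TAC than in Ctrl TAC but was not called (log2 fold change 0.57 ± 0.15, 95% interval 0.25 to 0.89, adjusted p = 0.0526). The Ctrl TAC 1 heart, at 23.3 CPM, lay within the KO TAC range of 23.0 to 28.7. Without Ctrl TAC 1 the difference was 0.75 and was called (adjusted p = 0.00948), as it was without Ctrl TAC 4 (adjusted p = 0.0456), with adjusted p from 0.00591 to 0.217 over 24 alternatives. Tgfb1, Tgfbr2, Inhba and Smad7 had log2 fold changes of 0.14, 0.19, 0.40 and 0.39, Tgfbr1 of 0.05 and Tgfbr3 of -0.16, none of them called. Before adjustment 8 of the 10 members had a p under 0.05, all but Tgfbr1 and Smad7, as did 3380 of all 18275 genes. The CPM ranges of Tgfb1, Tgfb3, Tgfbr2, Skil and Cilp did not overlap between KO TAC and Ctrl TAC, each higher in KO. Over all genes 10.5% had no overlap in this comparison, 5.55% higher and 4.99% lower.

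The animal numbers were unevenly spread over these groups, with 3 of 4 Ctrl TAC hearts and 1 KO TAC heart in the series starting with 25. Within that series the library labelled KO TAC 4 had Skil at 34.6 CPM against 25.9, 29.0 and 27.7 in Ctrl TAC, Tgfb3 at 23.8 against 17.8, 16.6 and 22.3, and Cilp at 113 against 42.3, 46.2 and 82.2. Outside it the 3 KO TAC hearts had Skil at 34.4 to 36.3 CPM against 22.6 in Ctrl TAC 1, Tgfb3 at 22.9 to 24.8 against 15.9, and Cilp at 131 to 137 against 66.4. Tgfb2 was at 25.6 CPM against 13.4, 13.2 and 19.3 within the series, and at 23.0 to 28.7 against 23.3 outside it. With the series as a term in the fit, Skil was called (0.49, adjusted p = 0.0446), and Tgfb3 (0.46, adjusted p = 0.112), Cilp (1.00, adjusted p = 0.209) and Tgfb2 (0.44, adjusted p = 0.217) were not. That term left 12 of 18275 genes called in all, 0.0657%. The only KO TAC heart in the series is the library labelled KO TAC 4, whose Cardinal level goes against its label. The only Ctrl TAC heart outside the series is Ctrl TAC 1. No fit combined the series term with leaving out the library labelled KO TAC 4, so the calls under that term rest on it.

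Whether the TAC response itself differed between genotypes was tested as the interaction of genotype and surgery. No member was called by edgeR, and 0.0109% of all genes were (2 of 18275). The largest interactions were those of Cilp (1.32 ± 0.41, adjusted p = 0.268), Tgfb2 (0.63 ± 0.22, adjusted p = 0.303), Inhba (0.59 ± 0.27, adjusted p = 0.420) and Skil (0.48 ± 0.099, adjusted p = 0.142). For Cilp, chosen on its TAC values, this test is not independent of the choice either. Before adjustment 6 members had a p under 0.05, as did 2024 of all 18275 genes. DESeq2 called Skil alone of the members (adjusted p = 0.00628) and 132 of all genes, 0.722%. A larger fold change in KO than in Ctrl hearts is therefore not shown to be a difference between the genotypes by the edgeR test.

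**Figure D4:**
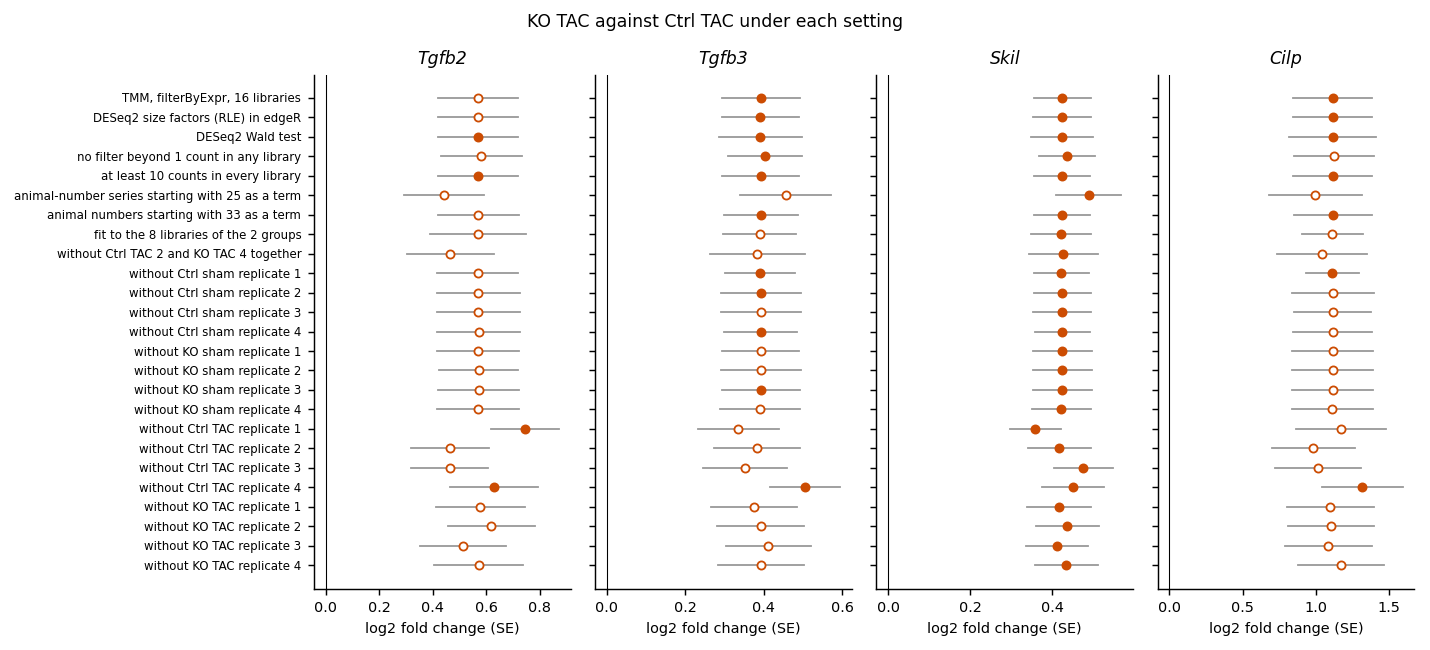
Log2 fold change of KO against Ctrl in TAC hearts under the alternative settings for the members the comparison turns on. Points are estimates, bars are SE, and filled points have an adjusted p under 0.05. The points of Skil are filled in every setting, at 0.36 to 0.49, and those of Tgfb3, Cilp and Tgfb2 are filled in some settings and open in others.

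The members belong to a wider pathway, examined in 6 lists of 105 genes by role, of which 97 were tested. After TAC 42 of the 97 rose and 5 fell in Ctrl hearts, and 54 rose and 10 fell in KO hearts. Between KO TAC and Ctrl TAC 15 were called, all higher in KO. Beside the shares of all genes called (20.0%, 34.3% and 2.68%), these are counts over lists assembled with earlier results of these data known. Most Ctrl TAC hearts and no sham heart carry an animal number starting with 25. With a term for that series, 38 list genes were called in Ctrl hearts instead of 47, beside 13.6% of all genes. In KO hearts 63 were called instead of 64, beside 34.1% of all genes.

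The latency and activation list holds genes tied by family or function to the storage and release of ligand, and release itself was not measured. Of 19 tested, 12 rose and 1 fell in Ctrl and 14 rose and 3 fell in KO hearts after TAC, with median log2 fold changes of 0.43 and 0.66. With a term for the animal numbers starting with 25, 10 rose and 1 fell in Ctrl. Ltbp2 went from 3.00 CPM in Ctrl sham to 27.6 in Ctrl TAC (log2 fold change 3.22, adjusted p = 1.36e-05) and from 2.36 to 66.4 CPM in KO hearts (4.81, adjusted p = 2.00e-07). Thbs1, whose product thrombospondin 1 activates latent TGF-beta, rose by 2.12 in Ctrl and 2.64 in KO hearts on the log2 scale. Ltbp1, which anchors latent TGF-beta 1 in the matrix, fell by 0.44 in Ctrl (adjusted p = 0.000857) and by 0.53 in KO hearts (adjusted p = 6.29e-05). The protease gene Furin, which cleaves the ligand precursors, fell by 0.29 in KO hearts (adjusted p = 0.0220) and was at -0.06 in Ctrl (adjusted p = 0.712). In KO TAC against Ctrl TAC, 5 genes of the list were higher: Ltbp2 (1.27, adjusted p = 0.0329), Thbs1 (0.91, adjusted p = 0.0183), Ltbp3 (0.31, adjusted p = 0.0161) and the matrix metalloprotease genes Mmp2 (0.56, adjusted p = 0.0194) and Mmp14 (0.51, adjusted p = 0.0446). Without Ctrl TAC 2 none of these 5 was called by edgeR, while with all libraries DESeq2 called 8 of the list and 12 had an unadjusted p under 0.05. Over all genes DESeq2 called 6.46% in that comparison, and 3380 of 18275 had an unadjusted p under 0.05.

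Most of the other antagonist genes rose after TAC. Of 15 tested, 9 rose and 1 fell in Ctrl and 10 rose and 1 fell in KO hearts, with medians of 0.80 and 1.13. With a term for the animal numbers starting with 25, 7 rose and 1 fell in Ctrl. Fmod, encoding the collagen-binding proteoglycan fibromodulin, went from 0.477 to 4.59 CPM in Ctrl (3.30, adjusted p = 0.000255) and from 0.358 to 13.8 CPM in KO hearts (5.25, adjusted p = 2.28e-06). Fstl3, an activin-binding follistatin relative, rose by 1.75 in Ctrl and 1.73 in KO hearts. Cilp2, the paralog of Cilp, rose by 1.55 in Ctrl (adjusted p = 0.0242) and 2.06 in KO hearts (adjusted p = 0.00134), at no more than 77 counts in any library. Htra1, encoding a secreted serine protease, fell by 0.60 in Ctrl (adjusted p = 2.57e-06) and by 0.71 in KO hearts (adjusted p = 1.15e-07). In KO TAC against Ctrl TAC, Fmod (1.58, adjusted p = 0.0422), Bgn (0.59, adjusted p = 0.0104), Aspn (0.57, adjusted p = 0.0145) and Fstl1 (0.44, adjusted p = 0.0232) were higher. Fmod, Bgn and Aspn encode small leucine-rich proteoglycans of the matrix. The call of Fmod was lost without the library labelled KO TAC 4 and was made in 7 of 24 alternatives. Without Ctrl TAC 2 the count of this list went from 4 to 2, Bgn and Aspn.

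Textbook TGF-beta target genes had the largest median changes of the 6 lists, 0.94 in Ctrl and 1.37 in KO hearts. Of 22 tested, 15 rose in Ctrl and 20 in KO hearts, and none fell. With a term for the animal numbers starting with 25, 11 rose in Ctrl and 20 in KO hearts. Postn, encoding the activated-fibroblast matrix protein periostin, went from 30.3 to 179 CPM in Ctrl (2.56, adjusted p = 8.14e-07) and from 28.0 to 413 CPM in KO hearts (3.88, adjusted p = 1.18e-08). Comp, encoding a cartilage matrix protein that is also a fibroblast activation marker, rose by 2.36 in Ctrl and 3.59 in KO hearts. Higher in KO TAC than in Ctrl TAC were Comp (1.63, adjusted p = 0.0194), Postn (1.21, adjusted p = 0.0102), Lox, encoding the collagen cross-linking enzyme lysyl oxidase (1.02, adjusted p = 0.0104), Col1a2 (0.40, adjusted p = 0.0375) and Fn1 (0.37, adjusted p = 0.0154). The call of Col1a2 was lost without the library labelled KO TAC 4 and was made in 11 of 24 alternatives. Without Ctrl TAC 2 the count of this list went from 5 to 3, Comp, Postn and Lox.

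The remaining lists moved less. Over all genes 20.0% were called after TAC in Ctrl and 34.3% in KO hearts. The counts of other ligands and other receptors called in Ctrl lay near that share. Of 13 other ligands of the superfamily, 2 rose in Ctrl and 4 rose and 3 fell in KO hearts, and without the library labelled KO TAC 4 the 3 that fell came down to 1, with Bmp7 among those lost. Gdf15, a stress cytokine of cardiomyocytes, rose by 2.06 in Ctrl (adjusted p = 0.00327) and 2.32 in KO hearts, and Gdf6 by 1.67 (adjusted p = 0.000182) and 2.83. Inhbb, the activin B subunit, rose by 1.02 in KO hearts (adjusted p = 0.000412) and was higher in KO TAC than in Ctrl TAC (0.78, adjusted p = 0.0366), a call lost without Ctrl TAC 2. Bmp7 (-0.72, adjusted p = 0.0439) and Inha (-0.40, adjusted p = 0.0112) fell in KO hearts. Among 9 other receptors tested, Acvr1 rose by 0.28 in Ctrl and 0.27 in KO hearts, Acvr2b fell by 0.50 and 0.76, and the other 7 were not called in either.

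Smads and nuclear regulators, which carry the signal inside the cell, included 3 genes that rose and 2 that fell of 19 in Ctrl, and 5 that rose and 2 that fell in KO hearts, with medians of 0.00 and 0.10. These counts lay near the shares of all genes called, 20.0% in Ctrl and 34.3% in KO hearts. Pmepa1, an inhibitor of SMAD2 and SMAD3 activation that TGF-beta induces, went from 21.9 to 40.7 CPM in Ctrl (0.90, adjusted p = 1.99e-05) and from 22.7 to 51.2 CPM in KO hearts (1.17, adjusted p = 3.84e-07). Tgif1, a corepressor of SMAD targets, rose by 0.69 in Ctrl (adjusted p = 0.00268) and 1.22 in KO hearts. The ubiquitin ligase gene Nedd4l fell by 0.22 and 0.25, Smad5 fell by 0.16 in Ctrl, and Zfyve9, encoding a receptor-SMAD adaptor, fell by 0.20 in KO hearts. Between KO TAC and Ctrl TAC edgeR called none of the 19 and DESeq2 1, with 6 at an unadjusted p under 0.05. Among the other receptors neither tool called any in that comparison, with 2 at an unadjusted p under 0.05. Over all genes edgeR called 2.68% and DESeq2 6.46% in that comparison, and 3380 of 18275 had an unadjusted p under 0.05.

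In sham hearts no gene of the 6 lists was called between KO and Ctrl by edgeR or DESeq2, with 3 of 97 at an unadjusted p under 0.05. In the interaction edgeR called none, DESeq2 called 8, and 31 had an unadjusted p under 0.05, beside the 132 and 2024 of all 18275 genes given above. Of the 15 list genes higher in KO TAC, 5 stayed called without Ctrl TAC 2, 7 without Ctrl TAC 3, 8 without KO TAC 2 and 5 without KO TAC 3. Without the library labelled KO TAC 4 the call held for 13 of the 15, the exceptions being Fmod and Col1a2. None of the 15 passed when the fit included the series starting with 25. After TAC, calls of Acvr2b, Cilp2, Mmp14, Smad5 and Tgif1 in Ctrl and of Bmp7, Furin, Inha and Zfyve9 in KO hearts were lost in at least 1 of the alternatives, with that of Bmp7 made in 11 of 24, and the other named list genes were called in all of them. Annotated genes on the other strand overlap exons of Ltbp2, Ltbp3, Thbs1, Furin, Aspn, Fstl3, Fn1, Lox, Nedd4l and Zfyve9, and since the strand setting of the counting was not given, reads of such neighbours could be included. The same holds for Nppa, with 532 of its 865 exon bases shared, and for Myh6, with 114 bases shared. Smad5 shares 100 exon bases with a gene on its own strand. Of the members, Tgfb2, Tgfb3 and Tgfbr3 share 124, 420 and 297 exon bases with uncharacterized genes that had at most 4, 8 and 12 counts in any library.

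**Figure D5:**
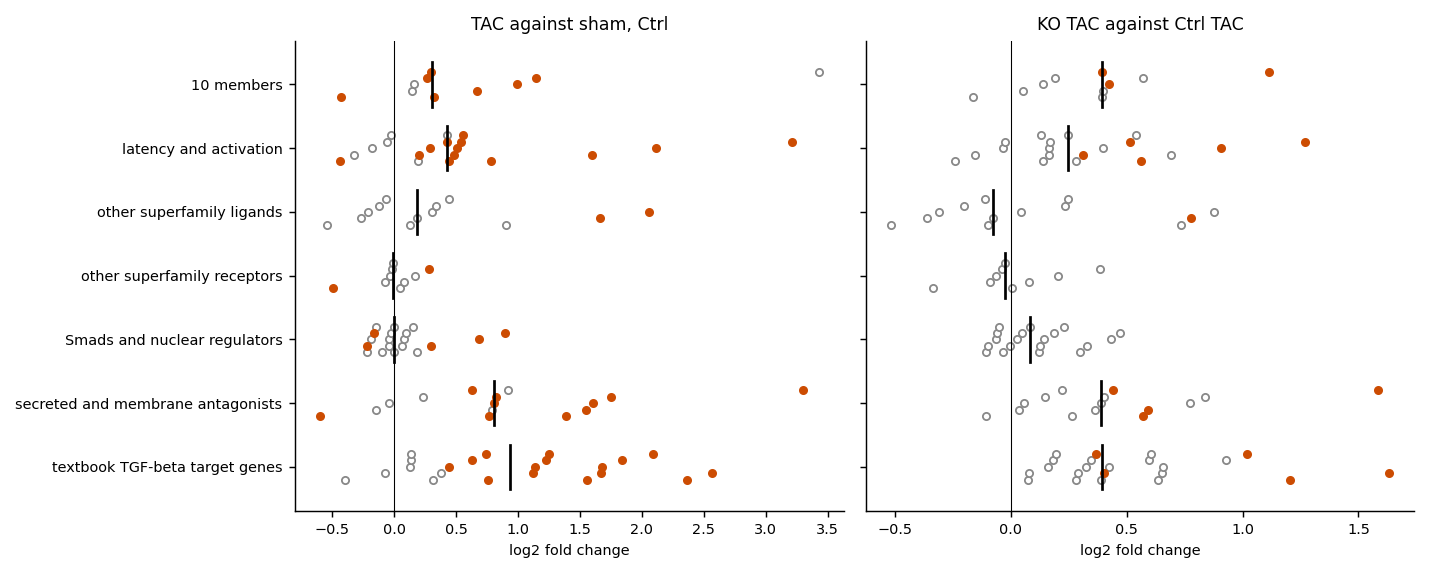
Log2 fold change of every tested gene in the members and in the 6 pathway lists, for TAC against sham in Ctrl (left) and KO against Ctrl in TAC hearts (right). Orange points were called by edgeR, grey open points were not (Cilp is drawn open where it was not tested), and black bars are medians. The target genes have the highest median after TAC (0.94), and the other receptors lie around 0.

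The levels of several cell type marker lists differed between the same groups. The summed CPM of 10 cardiomyocyte markers was 58029 to 66291 in Ctrl sham, 59232 to 64297 in KO sham, 52991 to 56609 in Ctrl TAC and 47183 to 49509 in KO TAC. Myh6 alone reached 27489 CPM in that sum. After TAC edgeR called 1 of these markers higher and 5 lower in Ctrl, and 1 higher and 7 lower in KO hearts. Over all genes 20.0% were called after TAC in Ctrl (10.4% higher and 9.60% lower) and 34.3% in KO hearts (17.8% and 16.5%). Nppa, in the same list, went up, from a mean of 130 to 1025 CPM in Ctrl and from 146 to 2322 in KO hearts. The sum of 10 fibroblast markers was 1361 to 1569 in Ctrl sham, 1423 to 1486 in KO sham, 1707 to 2174 in Ctrl TAC and 2190 to 2489 in KO TAC, and 5 of those 10 genes also stand in the pathway lists. The list did not move as one, since 7 of the 10 had a positive log2 fold change after TAC in each genotype. In Ctrl 4 were called higher and none lower, and in KO hearts 7 were called higher and 1 lower. The sum of 10 macrophage markers was 216 to 286, 213 to 273, 306 to 359 and 309 to 432 CPM in the same order. After TAC 6 of these were called higher in Ctrl and 9 in KO hearts, and none lower. For 10 smooth muscle and pericyte markers the sum was 2387 to 2543, 2366 to 2537, 2791 to 3165 and 3132 to 3294 CPM, with 2 of these genes also in the pathway lists. After TAC 4 of them were called higher and 1 lower in Ctrl, and 5 higher and 1 lower in KO hearts. For 10 endothelial markers the sum was 825 to 850, 823 to 957, 800 to 985 and 806 to 919 CPM, and these ranges overlapped. After TAC none of them was called in Ctrl, and 2 were called higher in KO hearts. Between KO TAC and Ctrl TAC, 2 cardiomyocyte markers, 1 macrophage marker and 1 cartilage and valve marker were lower and 1 fibroblast marker was higher by edgeR. Beside these, 2.68% of all genes were called in that comparison. The sum of 6 erythroid markers was 893 to 1264 CPM in Ctrl sham, 907 to 1177 in KO sham, 530 to 1037 in Ctrl TAC and 1019 to 1377 in KO TAC. All 6 were higher in KO TAC than in Ctrl TAC (median log2 fold change 0.43), and edgeR called none of them. Markers of lymphocytes, epicardium and cartilage summed to at most 5.07, 13.1 and 6.77 CPM in any library, and Col9a1 of the cartilage list was at 0 in all 16. The part of cell type shares in the changes of the 10 members was not tested.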

How the data were processed

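RNA-Seq was performed on poly(A)-selected RNA from the heart apex of 16 mice (paired 150-base reads). The authors deposited a table of raw read counts per gene. The submitters' processing notes name cutadapt 2.3, FastQC, HISAT2 2.1.0, edgeR 3.26.1 and build GRCm38, while the counting program, annotation and strand setting were not given in the sources used here. Of 55487 identifiers, 99.4% matched a GENCODE symbol, and rows without a symbol held 0.0131% of counts. Replicates were separate mice, numbered in accession order. Counts (53169437 to 79404714 per library) were filtered with filterByExpr, TMM-scaled and fitted with edgeR 4.0.16 (R 4.3.3, robust quasi-likelihood, 4 group means over 16 libraries), with Benjamini-Hochberg adjustment over 18275 genes. SEs were taken from the fold change and F statistic. The fit was tested on simulated data.

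The members and lists were chosen with earlier results of these data known. Named were all members, up to 2 list genes per list with the largest rise and fall in each TAC comparison, every list gene that differed between the TAC groups, and the 5 genes nearest to Cilp. Alternatives were RLE scaling, DESeq2 1.42.0, other low-count filters, terms for the animal-number series starting with 25 or 33, fits to 8 libraries, and leaving out each library. For the pathway lists they were added after seeing the data.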

Additional observations from a re-analysis of the deposited data

Results flagged for a closer look

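In 2 of the 40 groups of 4 libraries (10 members by 4 groups) a single library stood apart by Dixon's test, a rule that chance meets in about 1 group in 20. Tgfbr2 was at 71.5 CPM in KO TAC 3, with 59.5 to 60.7 in the other 3 KO TAC libraries. Tgfbr3 was at 32.3 CPM in Ctrl sham 2, with 37.9 to 38.2 in the other 3 Ctrl sham libraries. The Cardinal level of 4.55 CPM in the library labelled KO TAC 4, above all Ctrl TAC libraries but Ctrl TAC 1, is given in the report with the calls made without that library.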

How the results depend on the processing

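The number of members called after TAC was 7 in Ctrl and 8 in KO hearts (Cilp left out), and moved to 5 to 7 and 8 to 9 over 24 alternatives (6 to 7 and 8 to 9 with 1 library left out). Between KO TAC and Ctrl TAC, 3 members were called, but 1 with the animal-number series starting with 25 as a term, 1 in a fit to the 8 TAC libraries, 1 without Ctrl TAC 2 and KO TAC 4 together, and 1 to 4 with 1 library left out. Skil was the member called in each of these. In the interaction edgeR called 0 members and DESeq2 1. Of the 97 pathway list genes tested, 15 differed between the TAC groups, but 31 by DESeq2, 0 with the series starting with 25 as a term, 9 in the 8-library fit, 8 without Ctrl TAC 2 and KO TAC 4 together, and 5 to 22 with 1 library left out. In the interaction 0 list genes were called by edgeR, 8 by DESeq2 and 0 to 2 with 1 library left out. Over all genes, DESeq2 called 1180 between KO TAC and Ctrl TAC against 489 by edgeR. Uncalled values near 0 changed sign: Smad7 between the sham groups was -0.065 with the numbers starting with 33 as a term, Tgfbr1 between the TAC groups was -0.0052 without both libraries and -0.017 to 0.105 with 1 library left out, and with 1 library left out Tgfb1, Tgfb2 and Tgfb3 between the sham groups ranged from -0.018 to 0.066, -0.128 to 0.0054 and -0.119 to 0.033. The causes of these shifts were not tested. No paired analysis was possible because the columns carry animal numbers and no shared replicate numbers. Intervals reflect 4 mice per group. Inhba and Cilp2 rest on low counts.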
